A study of Mus musculus with 8 samples.

Results

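The 10 genes described here are linked to the cell cycle and growth arrest, and their RNA was measured in cumulus cells, the somatic cells around the oocyte. They are the D-type cyclins Ccnd1, Ccnd2 and Ccnd3, the inhibitors Cdkn1a (p21), Cdkn1b (p27), Cdkn1c (p57) and Cdkn2c (p18), the stress-response genes Gadd45a and Gadd45b, and the growth arrest gene Gas1. Members were chosen by gene symbol. All 10 were on the array, out of 8251 genes with a probe set of their own, and they carried 14 probe sets.

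The cells came from C57Bl/6 females of 3 to 4 weeks, either WT or Ptger2(-/-), called EP2KO, which lack the prostaglandin E2 receptor EP2. All mice had 5 IU of PMSG, an FSH-like stimulus for follicle growth. The 0 h samples were taken 48 h later without hCG, and the others 3, 9 or 14 h after 5 IU of hCG, which acts like the ovulatory LH surge. There was 1 array per genotype and time, 8 in all, and how many animals went into an array is not stated in the labels. At 14 h the cells came from ovulated complexes in the oviduct and were freed with 0.1% hyaluronidase, whereas earlier cells were stripped mechanically from ovarian complexes, so stage and way of collection cannot be told apart.

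D-type cyclins bind the kinases CDK4 and CDK6, and these complexes phosphorylate the retinoblastoma protein, which lets E2F factors switch on the genes of DNA replication. INK4 proteins such as p18 block CDK4 and CDK6 directly, whereas the Cip/Kip proteins p21, p27 and p57 mainly restrain CDK2 complexes. In the follicle, FSH drives granulosa and cumulus cells to divide with cyclin D2 as the main D-type cyclin, and the LH surge ends division as the cells differentiate. Gadd45 proteins respond to stress and growth arrest and bind PCNA and p21, and Gas1 is a membrane-anchored protein first found in resting fibroblasts.

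The array signals are on the log2 scale, so a difference of 1 is a doubling. Medians of the 8 arrays lay between 7.79 and 7.89. Markers of cumulus and granulosa cells were present, with the inhibin subunit Inha at 12.34 to 14.37 and the gap junction gene Gja1 at 13.28 to 13.57 on the 8 arrays. Of the 12 measured markers of these cells, 6 were lower and none higher at 14 h against 9 h, among them Inhbb, from 10.19 to 7.33 in WT and from 11.17 to 7.26 in EP2KO, and Esr2, from 8.67 to 7.61 and from 9.46 to 7.54. At 14 h against 0 h 3 were higher, Ptx3, Tnfaip6 and Ptgs2, and 6 lower. The pan-leukocyte gene Ptprc read 5.53 to 5.86, while among the other leukocyte markers Lyz2 read 5.27 to 7.65 and Cd14 8.80 to 10.25. Ptger2 read lower in EP2KO at every time, from 4.57 against 4.95 at 0 h to 4.24 against 5.97 at 3 h. Whether its probes lie in the deleted part is not known here. The 14 h arrays stood apart in the 3' minus 5' difference of the Gapdh control, which grows as RNA shortens, at 2.87 in WT and 2.82 in EP2KO against 0.80 to 1.86 earlier. The Actb control did not set them apart, at 1.61 in WT and 1.37 in EP2KO against 0.69 to 1.54 earlier. Markers of other cells also moved. At 14 h against 9 h 6 of 15 leukocyte and 4 of 12 oviduct epithelium markers were higher and none lower, where 10.04% of all probe sets were called higher and 10.1% lower, and the oviduct gene Ovgp1 stood at 11.13 and 11.46 at 14 h against 7.05 to 7.76 before. At 3 h against 0 h 6 of 15 leukocyte markers were lower and none higher, and of 12 theca and stroma markers 5 were lower and 1 higher, Star (4.11), with 25.4% of all probe sets lower and 17.4% higher. Of 4 erythroid markers 2 were higher and 1 lower in that comparison.

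Promoter sequences are shown for 3 of the members that rose, Gadd45a and Gas1 towards ovulation and Gadd45b soon after hCG. Each run holds the 250 bases before the RefSeq start site (GRCm38.p6), 5′ to 3′ on the strand of the gene. Capitals mark the E-box CACGTG and the CCAAT box, found by a search of both strands.
Gadd45a, chr6:67037408-67037657, minus strand: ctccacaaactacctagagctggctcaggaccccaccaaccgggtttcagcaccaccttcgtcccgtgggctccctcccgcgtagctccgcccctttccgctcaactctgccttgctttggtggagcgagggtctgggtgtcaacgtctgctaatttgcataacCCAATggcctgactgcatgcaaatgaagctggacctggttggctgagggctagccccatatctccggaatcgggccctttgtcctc
Gadd45b, chr10:80929841-80930090, plus strand: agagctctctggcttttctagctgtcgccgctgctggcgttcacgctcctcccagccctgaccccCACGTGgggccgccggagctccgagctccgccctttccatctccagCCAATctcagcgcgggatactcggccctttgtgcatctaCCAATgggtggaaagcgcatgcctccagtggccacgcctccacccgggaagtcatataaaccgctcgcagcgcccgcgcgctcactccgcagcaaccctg
Gas1, chr13:60177536-60177785, minus strand: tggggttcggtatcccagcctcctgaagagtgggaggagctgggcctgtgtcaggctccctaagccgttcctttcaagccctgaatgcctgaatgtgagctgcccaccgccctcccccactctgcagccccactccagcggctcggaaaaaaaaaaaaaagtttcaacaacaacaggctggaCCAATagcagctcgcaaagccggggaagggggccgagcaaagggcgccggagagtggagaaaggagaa
Gadd45a and Gas1 each held 1 CCAAT box, starting 86 and 68 bases before the start, while Gadd45b held 2, at 139 and 100 bases, and an E-box at 185 bases. Windows were at hand for 7 of the 10 members, 10 windows in all since some genes have more than 1 start. A CCAAT box was in 5 of the 10, against 33.8% of 32851 mouse windows of the same length. Those windows belong to Ccnd3, Cdkn1b, Gadd45a, Gadd45b and Gas1. Cdkn1a, which also rose soon after hCG, held none of the searched motifs in its windows. The E-box CACGTG was in 1 of them (6.02% of all windows) and the FOXO motif GTAAACA in 1, of Ccnd3 (3.17%). The cAMP response element TGACGTCA (1.55% of all windows), the AP-1 motif TGANTCA (6.75%) and the E2F-like motif TTTNNCGC (4.28%) were in none of the 10. A match is a description of letters and no measure of binding.

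Cyclin D2 fell steeply after 3 h. Ccnd2 read 11.07, 11.61, 9.63 and 8.45 in WT at 0, 3, 9 and 14 h, and 11.15, 11.37, 10.07 and 8.34 in EP2KO. Both genotypes were highest at 3 h and lowest at 14 h, and at 9 and 14 h both arrays lay below both of the 0 h arrays. Between 0 and 14 h Ccnd2 fell by 2.71 ± 0.159 log2 units, a 6.57-fold drop (limma, adjusted p = 1.3e-06). Here and below ± gives the SE, and each time has n = 2 arrays, 1 per genotype. The fall was 1.64 ± 0.159 from 3 to 9 h (adjusted p = 2.5e-04) and 1.46 ± 0.159 from 9 to 14 h (adjusted p = 1.33e-04). The change by 3 h, 0.38, did not pass (adjusted p = 0.076), and did without the EP2KO 3 h array (0.57, adjusted p = 0.0393).

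Cyclin D3 moved the other way and later than 3 h. Ccnd3 read 9.08, 8.95, 9.76 and 9.77 in WT, and in EP2KO 9.07, 8.98, 9.69 and 9.57, so that the 4 arrays of 9 and 14 h all lay above the 4 arrays of 0 and 3 h. It rose by 0.76 ± 0.118 from 3 to 9 h (adjusted p = 0.00225) and stood 0.59 ± 0.118 above 0 h at 14 h (adjusted p = 0.0034), with −0.06 between 9 and 14 h. Cyclin D1 showed a dip alone. Ccnd1 read 8.35, 7.77, 8.01 and 8.04 in WT, and in EP2KO 8.05, 7.69, 8.10 and 8.13, lowest at 3 h in both. It fell by 0.47 ± 0.132 by 3 h (adjusted p = 0.0177), and its second probe set, at −0.32 with values from 7.15 to 7.82, did not pass (adjusted p = 0.0645). The median of all probe sets also moved by −0.135 in that interval, or −0.06 once every array was centred on its median. The Ccnd1 call ended without the WT 0 h array (−0.30, adjusted p = 0.185), the WT 3 h array (−0.49, adjusted p = 0.0846) or the EP2KO 3 h array (−0.45, adjusted p = 0.066).

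**Figure D1:**
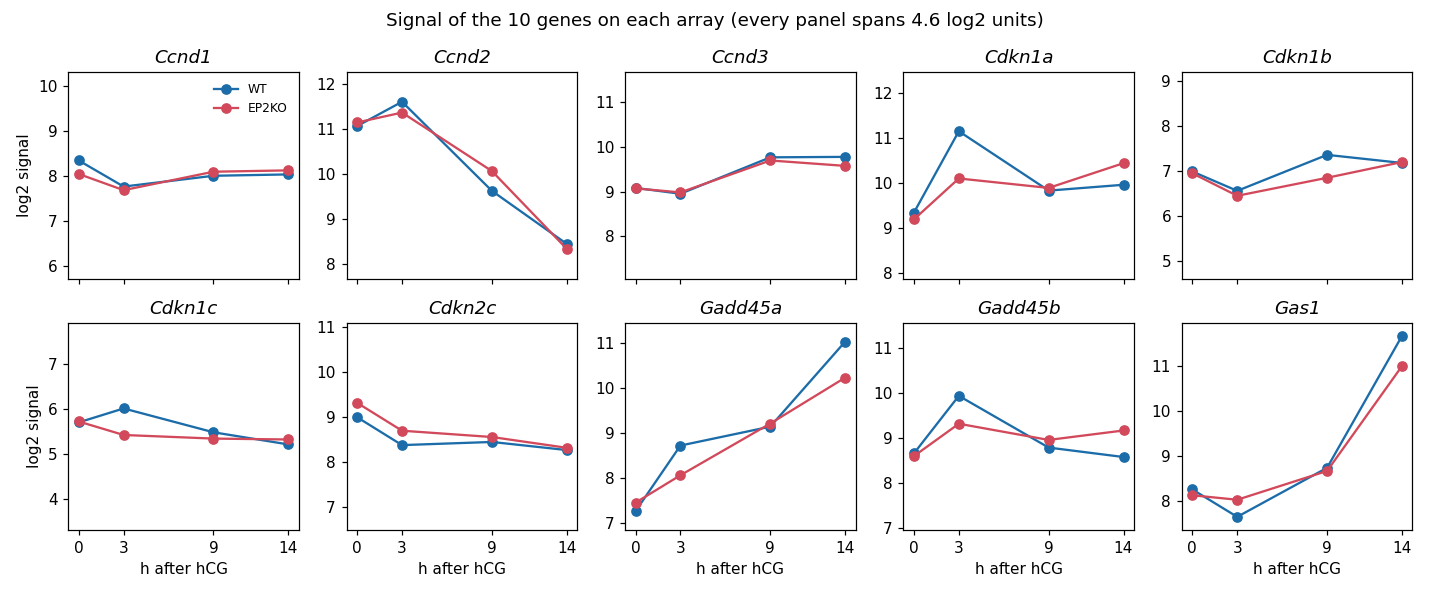
Log2 signal (vertical axis) of each of the 10 genes against hours after hCG, for its probe set with the highest mean, with 1 point per array and lines joining the arrays of a genotype. Each panel spans the same number of log2 units, so slopes can be compared between panels and heights cannot. Ccnd2 falls from 11.07 to 8.45 in WT, while Gadd45a climbs from 7.27 to 11.04 and Gas1 from 8.25 to 11.66.

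Among the Cip/Kip inhibitors only Cdkn1a was called higher than 0 h by its main probe set, the one with the highest mean. Cdkn1a, whose product p21 is a classic p53 target, read 9.35, 11.16, 9.84 and 9.97 in WT, and in EP2KO 9.20, 10.11, 9.90 and 10.45. The WT peak was at 3 h and the highest EP2KO value at 14 h, and every array after hCG lay above both 0 h arrays. It rose by 1.36 ± 0.271 by 3 h (2.57-fold, limma, adjusted p = 0.00378), a call that ended without the WT 0 h array (1.35, adjusted p = 0.0546). At 14 h it stood 0.94 ± 0.271 above 0 h (adjusted p = 0.0255), and this call ended without the WT 0 h (0.93, adjusted p = 0.159), EP2KO 0 h (0.94, adjusted p = 0.128) or EP2KO 14 h array (0.51, adjusted p = 0.245). The change from 3 to 9 h, −0.77, did not pass (adjusted p = 0.0733), and did without the EP2KO 3 h array (−1.36, adjusted p = 0.00281) or either 14 h array (−0.77, adjusted p = 0.0335). At 9 h it stood at 0.59 against 0 h (adjusted p = 0.144), which passed without either 3 h array (adjusted p = 0.0214). Its second probe set gave a like rise by 3 h, 1.45 ± 0.243, but a larger one by 14 h, 2.46 ± 0.243 (adjusted p = 3.89e-05). That second set read 10.06 and 10.40 at 14 h in WT and EP2KO, its highest values of the 8 arrays. Between 9 and 14 h the sets parted, at 0.34 for the first, which did not pass (adjusted p = 0.478), and 1.55 ± 0.243 for the second (adjusted p = 0.00116). Probe sets of a gene lie at different distances from the 3' end, and the 3' minus 5' Gapdh difference rose at 14 h. From 9 to 14 h that of Actb went from 1.54 to 1.61 in WT and from 1.12 to 1.37 in EP2KO. Their part in this disagreement was not tested.

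Cdkn1b, the gene of p27, read 6.99, 6.56, 7.36 and 7.18 in WT, and in EP2KO 6.95, 6.45, 6.85 and 7.20. The 3 h arrays were the lowest of either genotype. The fall by 3 h was 0.47 ± 0.144 (adjusted p = 0.0265) and the return from 3 to 9 h 0.60 ± 0.144 (adjusted p = 0.0173). At 14 h it stood 0.22 above 0 h without passing (adjusted p = 0.296). The fall did not hold with arrays centred on their medians (−0.39, adjusted p = 0.0608), under quantile normalization (−0.30, adjusted p = 0.131) or with its probe sets averaged (−0.22, adjusted p = 0.149). It also ended without the WT 0 h, WT 3 h, EP2KO 0 h or EP2KO 3 h array, with adjusted p from 0.0641 to 0.145 and changes from −0.55 to −0.39, and the return ended without the WT 3 h (0.57, adjusted p = 0.134) or WT 9 h array (0.37, adjusted p = 0.346). The second, much dimmer Cdkn1b probe set gave 0.02 by 3 h and rose by 1.39 ± 0.172 by 14 h (adjusted p = 1.82e-04), from 4.06 to 5.66 in WT and from 3.84 to 5.01 in EP2KO. Averaged over its probe sets Cdkn1b passed at 9 h (0.42, adjusted p = 0.0302) and 14 h (0.80, adjusted p = 8.11e-04) against 0 h. With 4.15% of all probe sets below its mean the second set lay near the bottom of the signal range.

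Cdkn1c, the gene of p57, was dim throughout, with 12.6% of probe sets below its mean. It read 5.71, 6.02, 5.49 and 5.22 in WT, and in EP2KO 5.73, 5.43, 5.35 and 5.33. It was called at no time, with −0.45 ± 0.163 at 14 h against 0 h (adjusted p = 0.0664). That last value passed without the WT 3 h or EP2KO 3 h array (−0.45, adjusted p = 0.0195) and, at the edge, without the EP2KO 14 h array (−0.62, adjusted p = 0.05). The change of −0.30 from 3 to 9 h passed without the EP2KO 3 h array (−0.60, adjusted p = 0.0255). The INK4 gene Cdkn2c fell early and stayed down. It read 9.00, 8.38, 8.45 and 8.27 in WT, and in EP2KO 9.32, 8.70, 8.56 and 8.32, and all 6 arrays after hCG lay below both 0 h arrays. The change from 0 h was −0.62 ± 0.124 at 3 h (adjusted p = 0.00379), −0.66 ± 0.124 at 9 h (adjusted p = 0.00409) and −0.87 ± 0.124 at 14 h (adjusted p = 4.36e-04). The 9 h call ended without the EP2KO 9 h array (−0.60, adjusted p = 0.0627).

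Gadd45a climbed at every step. It read 7.27, 8.73, 9.15 and 11.04 in WT, and in EP2KO 7.46, 8.07, 9.22 and 10.24, so each later time lay above the earlier one in both genotypes, with no overlap between the pairs. The rise was 1.04 ± 0.222 by 3 h (adjusted p = 0.00533), 1.82 ± 0.222 by 9 h (adjusted p = 3.22e-04) and 3.27 ± 0.222 by 14 h (9.68-fold, adjusted p = 3.04e-06). The step from 9 to 14 h was 1.46 ± 0.222 (adjusted p = 9.85e-04). The 3 h call ended without the WT 0 h (0.71, adjusted p = 0.0997) or WT 3 h array (0.80, adjusted p = 0.0773). The step from 3 to 9 h, 0.79 ± 0.222 (adjusted p = 0.0337), ended after median centring (0.75, adjusted p = 0.0631) and without the WT 3 h (1.02, adjusted p = 0.0651), EP2KO 3 h (0.55, adjusted p = 0.179) or EP2KO 9 h array (0.54, adjusted p = 0.209).

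Gadd45b peaked early, and its probe sets differed in how far it came back. The main one read 8.66, 9.94, 8.79 and 8.58 in WT, and in EP2KO 8.60, 9.32, 8.96 and 9.17, with the 3 h arrays highest in either genotype. It rose by 1.0 ± 0.223 by 3 h (adjusted p = 0.0063) and stood at 0.25 above 0 h at 9 h and at 14 h, which did not pass (adjusted p = 0.466 and 0.461). The 3 h call ended without the WT 0 h (1.05, adjusted p = 0.0604) or WT 3 h array (0.57, adjusted p = 0.0832). The fall from 3 to 9 h, −0.76 ± 0.223 (adjusted p = 0.0396), ended under quantile normalization (−0.65, adjusted p = 0.0712), with probe sets averaged (−0.53, adjusted p = 0.118) and without any of 5 arrays, among them WT 3 h (−0.33, adjusted p = 0.427) and WT 9 h (−0.66, adjusted p = 0.259). The others were WT 0 h and EP2KO 0 h, which gave the same fit for this contrast (both −0.76), and EP2KO 9 h (−0.86). The second probe set read 6.44, 9.51, 8.74 and 8.12 in WT, and in EP2KO 6.77, 9.10, 9.28 and 8.66, with all 6 arrays after hCG above both 0 h arrays. It rose by 2.70 ± 0.205 by 3 h (6.5-fold, adjusted p = 2.81e-05) and was still up by 2.40 at 9 h (adjusted p = 3.8e-05) and 1.79 at 14 h (adjusted p = 1.07e-04). Averaged over its probe sets Gadd45b passed at 9 h (1.32, adjusted p = 0.00258) and 14 h (1.01, adjusted p = 0.00629). The name of the second set ends in _f_at, a suffix Affymetrix used for probe sets that may also bind related sequences, and whether they do so here was not tested.

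Gas1 changed most of the 10 between 9 and 14 h. It read 8.25, 7.64, 8.73 and 11.66 in WT, and in EP2KO 8.12, 8.02, 8.66 and 10.99, and the 14 h arrays stood more than 2 units above every other array. The step from 9 to 14 h was 2.63 ± 0.199 (6.19-fold, adjusted p = 1.62e-05), and at 14 h Gas1 stood 3.14 ± 0.199 above 0 h (adjusted p = 2e-06). Before that it moved less, by −0.36 to 3 h (adjusted p = 0.169), which passed without the EP2KO 3 h array (−0.69, adjusted p = 0.0253). It rose by 0.86 ± 0.199 from 3 to 9 h (adjusted p = 0.0144), a call that ended without the WT 3 h (0.53, adjusted p = 0.185), WT 9 h (0.90, adjusted p = 0.0744) or EP2KO 9 h array (0.83, adjusted p = 0.0533). At 9 h it stood at 0.51 against 0 h (adjusted p = 0.092), which passed without either 3 h array (adjusted p = 0.0414) or either 14 h array (adjusted p = 0.0289). Leukocyte and oviduct markers rose over the same step as Gas1 and Gadd45a, and their part in these rises was not tested. The mean log2 signal of the leukocyte list went from 7.21 to 7.73 in WT and from 7.21 to 8.08 in EP2KO between 9 and 14 h, and that of the oviduct list from 7.54 to 7.99 and from 7.49 to 8.21. Ovgp1 had the largest change of the oviduct list, 3.815, and the median change of that list was 0.168, against 0.03 over all probe sets. The mean of the 12 cumulus and granulosa markers went from 10.51 to 9.72 in WT and from 10.59 to 9.57 in EP2KO over that step, and its part was not tested either. In bulk samples of this kind fewer cells of a type and less RNA per cell cannot be told apart.

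**Figure D2:**
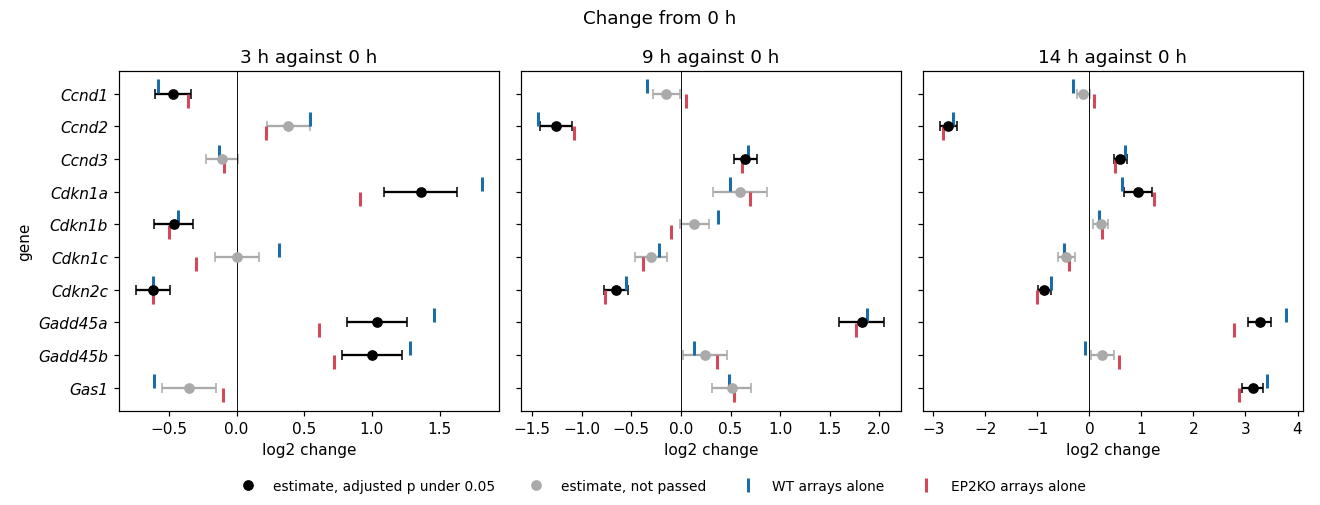
Log2 change from 0 h (horizontal axis) of the 10 genes at 3, 9 and 14 h. Dots are the fitted change over both genotypes with its SE, black where the adjusted p was under 0.05 and grey otherwise, and coloured ticks give the change of each genotype alone. Gadd45a and Gas1 lie above 3 at 14 h and Ccnd2 at −2.71, while the horizontal scales differ between panels.

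Counted over the 10 genes by main probe set, the 3 h against 0 h comparison had 3 higher (Cdkn1a, Gadd45a and Gadd45b) and 3 lower (Ccnd1, Cdkn1b and Cdkn2c), where 17.4% of all probe sets were called higher and 25.4% lower. That background rests on the scaling: 2161 were higher and 3152 lower as deposited, but 2394 and 2111 after median centring. Without the WT 0 h array 1 of the 10 was still called, Cdkn2c. At 9 h against 3 h 4 genes were higher (Ccnd3, Cdkn1b, Gadd45a and Gas1) and 2 lower (Ccnd2 and Gadd45b), with a background of 7.59% and 11.8%. Without the WT 3 h array 2 of these were left, Ccnd2 and Ccnd3. At 14 h against 9 h 2 were higher (Gadd45a and Gas1) and 1 lower (Ccnd2), against 10.04% and 10.1%. With a gene's probe sets averaged, Cdkn1a (0.95, adjusted p = 0.0314) and Cdkn1b (0.38, adjusted p = 0.0492) joined them.

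Against 0 h, 2 genes were higher at 9 h (Ccnd3 and Gadd45a) and 2 lower (Ccnd2 and Cdkn2c), with 10.9% and 12.1% of all probe sets. At 14 h 4 were higher (Ccnd3, Cdkn1a, Gadd45a and Gas1) and 2 lower (Ccnd2 and Cdkn2c), with 13.5% and 15.2%. The median absolute change of the 10 genes at 14 h was 0.73, against 0.22 over all probe sets. The medians with sign were 0.23 and −0.06, so the typical change was larger in size among the 10 genes, with members on both sides.

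**Figure D3:**
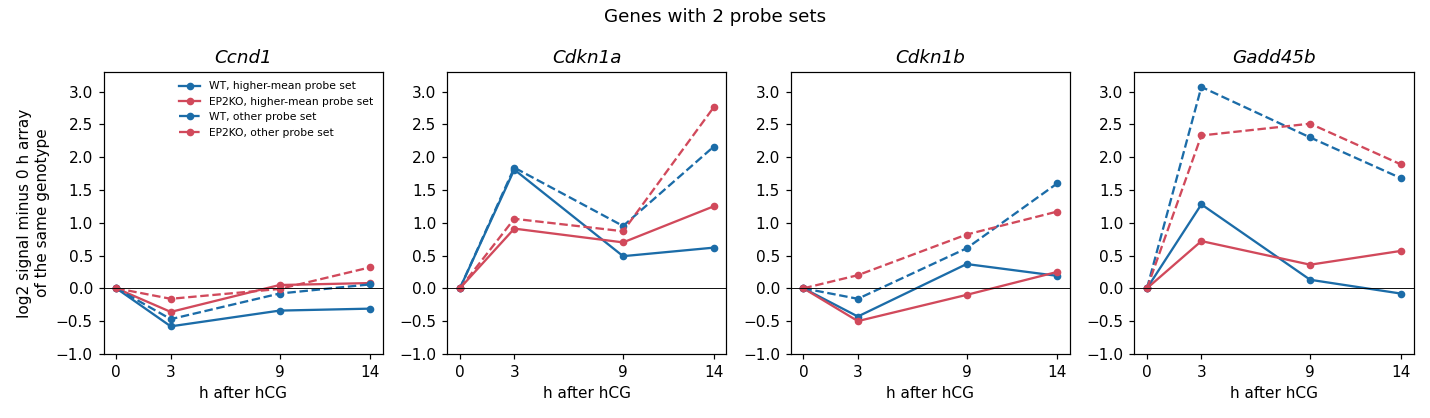
Change in log2 signal from the 0 h array of the same genotype (vertical axis) against hours after hCG, for the 4 genes with 2 probe sets, solid for the one with the higher mean and dashed for the other. For Cdkn1a the sets rise alike by 3 h and differ at 14 h, for Cdkn1b the dimmer set alone rises by 14 h, and for Gadd45b the dashed lines stay up at 9 and 14 h.

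The genotype comparison asks whether loss of EP2 shifts these genes. Over the 4 times none of the 10 was called, as was none of all probe sets (0%), by limma; at an unadjusted p under 0.05 there were 1 of the 10, Cdkn2c, and 642 of 12422 probe sets. Cdkn2c stood 0.20 ± 0.0874 higher in EP2KO (adjusted p = 0.948), with EP2KO above WT at each of the 4 times, by 0.32, 0.32, 0.11 and 0.05. At single times there is 1 array against 1 and no test. An absolute difference of at least 1 was found for 0.0403% of probe sets at 0 h, 0.467% at 3 h, 0.129% at 9 h and 0.217% at 14 h.

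Of the 10 genes only Cdkn1a reached that size, at 3 h. It read 11.16 in WT and 10.11 in EP2KO with the main probe set and 9.74 and 8.70 with the other, a 2.07-fold and a 2.06-fold lower level in EP2KO. For the main set 0.403% of all probe sets differed at least as much at that time. The rise by 3 h was 1.81 in WT and 0.91 in EP2KO. Whether the difference at 3 h departs from that at the other 3 times was tested with an interaction term, which gave −1.18 ± 0.251 for the main set and −0.95 ± 0.271 for the other. Neither passed (limma, adjusted p = 0.26 and 0.521; unadjusted 0.00107 and 0.00633), and no probe set of the array passed this test (0%).

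Gadd45a and Gadd45b were lower in EP2KO at 3 h too, at 8.07 against 8.73 and 9.32 against 9.94, and Cdkn1c at 5.43 against 6.02. Gas1 differed the other way in level, at 8.02 in EP2KO against 7.64 in WT, a departure of 0.67 ± 0.254 (adjusted p = 0.657, unadjusted 0.0269). For the 3 lower genes, between 1.67% and 2.34% of probe sets differed at least as much. Gadd45b departed by −0.85 ± 0.254 (adjusted p = 0.542), its second probe set by −0.88 ± 0.193 (adjusted p = 0.274) and Gadd45a by −0.48 ± 0.344 (adjusted p = 0.76). The change from 0 to 3 h was 1.46 in WT and 0.61 in EP2KO for Gadd45a, and 1.28 and 0.72 for Gadd45b. Like Cdkn1a both had the smaller change in EP2KO, and none of these departures passed. Genes that fell could do so too, as Gas1 changed by −0.61 in WT and −0.10 in EP2KO, and Ccnd1 by −0.58 and −0.36. Cdkn2c changed alike in both, by −0.62, and Cdkn1b by −0.43 and −0.50. The SD of the signals of an array went from 1.77 to 1.99 in WT and from 1.84 to 1.96 in EP2KO, and its part was not tested. Cdkn1a, Cdkn1c, Gadd45b and Gas1, 4 of the 10, had an unadjusted p under 0.05 for the departure at 3 h, against 891 of 12422 probe sets. The mean of the 11 measured oocyte markers also differed at 3 h, at 7.17 in EP2KO against 6.81 in WT. The median departure of these markers was 0.44 against 0.03 over all probe sets, and none of them passed. Their part in the differences at 3 h was not tested.

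At 9 h no departure passed for the 10 genes or for any probe set (0%). Ccnd2 was the 1 gene of the 10 with an unadjusted p under 0.05 (131 probe sets had one), at 10.07 in EP2KO against 9.63 in WT, a departure of 0.53 ± 0.240 (adjusted p = 0.999). By main probe set Cdkn1b had the largest difference of the 10 at that time, 6.85 in EP2KO against 7.36 in WT, with a departure of −0.47 ± 0.231 (adjusted p = 0.999, unadjusted 0.0636). Its second, dimmer probe set read 4.66 in EP2KO against 4.67 in WT, with a departure of 0.23 ± 0.289. The mean of the 4 measured erythroid markers was 8.57 in EP2KO against 9.87 in WT at 9 h. The median departure of these markers was −1.28 against −0.01 over all probe sets, and none of them passed. Their part in the differences at 9 h was not tested. At 14 h the genes differed in direction. Gadd45a read 10.24 in EP2KO against 11.04 in WT and Gas1 10.99 against 11.66, while Gadd45b read 9.17 against 8.58 and Cdkn1a 10.45 against 9.97. The departures were −0.67 ± 0.303 for Gadd45a (adjusted p = 0.711), −0.73 ± 0.239 for Gas1 (adjusted p = 0.537), 0.76 ± 0.282 for Gadd45b (adjusted p = 0.61) and 0.86 ± 0.357 for Cdkn1a (adjusted p = 0.676). None of the 10 passed, where 0.0805% of probe sets did, and 3 of the 10 against 865 of all had an unadjusted p under 0.05. Ccnd2 was 8.34 in EP2KO and 8.45 in WT at 14 h. The mean of the leukocyte list was 8.08 in EP2KO against 7.73 in WT at 14 h, and that of the oviduct list 8.21 against 7.99. Their median departures were 0.26 and 0.108, against 0.027 over all probe sets. Of these markers Krt18 alone passed (1.76 ± 0.233, limma, adjusted p = 0.0357). The part of other cells in the differences at 14 h was not tested. The median SE of a departure over all probe sets was 0.20 at 3 h, 0.243 at 9 h and 0.208 at 14 h.

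**Figure D4:**
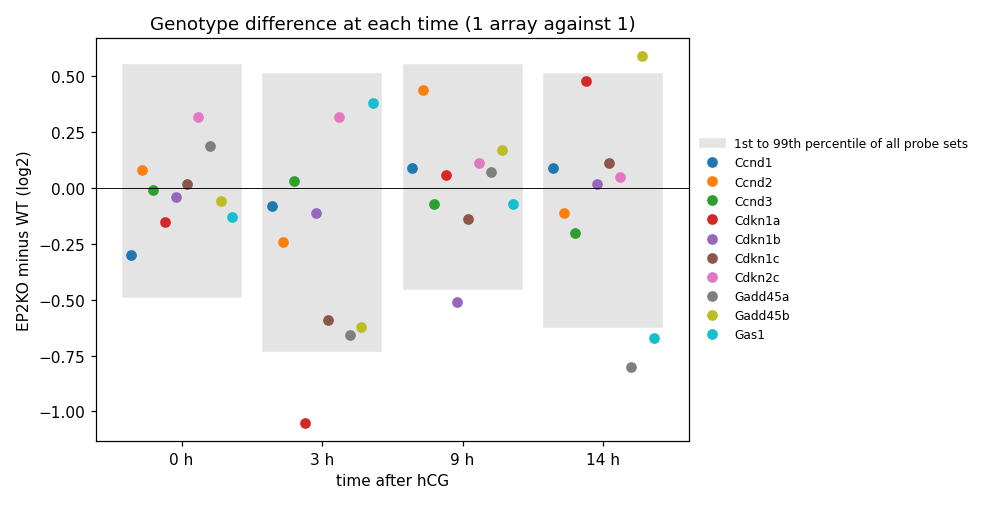
EP2KO minus WT log2 signal (vertical axis) at each time after hCG, with 1 point per gene for its main probe set. Grey bands leave out the most extreme 1% of all probe sets on each side. Outside the bands lie Cdkn1a at 3 h (−1.05) and Cdkn1b at 9 h (−0.51), both below, and at 14 h Gadd45b (0.59) above and Gadd45a (−0.80) and Gas1 (−0.67) below.

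Other genes of the pathway were followed in 6 lists. Of 10 measured G1 cyclins, kinases and activators 1 was higher and 2 lower at 3 h against 0 h, and 1 higher and 4 lower at 14 h, with a median of −0.15 against −0.06 over all probe sets. For this and the next lists, the share of all probe sets called was 17.4% higher and 25.4% lower at 3 h, and 13.5% and 15.2% at 14 h against 0 h, so the 3 h count of this list was no larger than that share. The counts of all lists use the main probe set of each gene. At 3 h Mnat1 was called lower by that set (−0.65) but higher by its other (0.365, limma, adjusted p = 0.0428). Cdk4 was not called by its main set (0.09) but higher by its other (0.915, adjusted p = 0.00185). Ccna2, cyclin A2 of S phase, stood at −1.09 ± 0.131 at 14 h (adjusted p = 1.48e-04) and Cdk4, the partner of the D-type cyclins, at −0.73 ± 0.128 (adjusted p = 0.00163), with −0.57 for its other probe set. Myc, a driver of growth, rose by 1.11 ± 0.145 by 3 h (adjusted p = 4.38e-04), fell by 1.05 from 3 to 9 h and rose by 1.73 from 9 to 14 h, in both genotypes each time.

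The list of other CDK inhibitors and p27 turnover had 9 measured genes, of which 5 were higher and none lower at 3 h (all probe sets, 17.4% and 25.4%), with a median of 0.36 against −0.135 over all. Cks1b, which helps the ligase that marks p27 for destruction, rose by 1.03 ± 0.166 by 3 h and stood at −1.39 ± 0.166 at 14 h (adjusted p = 1.39e-04). Cks2 rose by 1.27 and Skp1, a subunit of that ligase, by 0.93 by 3 h. Of the other INK4 genes, Cdkn2d (p19) stood 0.995 ± 0.112 above 0 h at 9 h (adjusted p = 2.05e-04). At 14 h 3 of the 9 were higher and 2 lower (all probe sets, 13.5% and 15.2%), the lower ones being Cks1b and Cdkn3, a phosphatase of CDKs, at −1.28.

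Of 7 measured Rb and E2F genes 1 was higher and 1 lower at 3 h, near the 17.4% and 25.4% of all probe sets, and none higher and 2 lower at 14 h, against 13.5% and 15.2%. Rbl1 (p107), a relative of the retinoblastoma protein, stood at −0.82 ± 0.157 at 14 h (adjusted p = 0.00282). Tfdp1, a partner of E2F proteins, stood at −0.78 for its highest-mean probe set, and at −0.25 and −0.22 for the others, which did not pass. Of 20 measured S and M phase genes 5 were higher and 4 lower at 3 h, near the shares of all probe sets. At 9 h against 3 h 16 were lower and none higher (all probe sets, 11.8% and 7.59%), and at 14 h against 9 h 15 lower and none higher (10.1% and 10.04%). At 14 h against 0 h 19 of the 20 were lower and none higher (15.2% and 13.5%), with a median of −1.65. At 14 h the replication licensing gene Cdc6 was at −2.44. Ccnd2 too fell both from 3 to 9 h and from 9 to 14 h, and a link to these genes was not tested.

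Of 13 measured genes of the p53 axis 5 were higher and 2 lower at 3 h (all probe sets, 17.4% and 25.4%), with a median of 0.085 against −0.135 over all. At 14 h 4 were higher and 2 lower (13.5% and 15.2%), with a median of 0.30 against −0.06. Plk2, a stress kinase, rose by 2.28 ± 0.231 by 3 h (adjusted p = 1.25e-04) and fell by 2.31 from 3 to 9 h, and Ccng2, cyclin G2, rose by 1.21 ± 0.261 by 3 h. Btg2, an antiproliferative gene, stood 1.97 ± 0.142 above 0 h at 14 h (adjusted p = 4.53e-06). Perp and Sesn1, which are also known p53 targets, stood at −2.02 and −1.39 at 14 h.

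Of 16 measured antiproliferative and growth arrest genes 8 were higher and 1 lower at 3 h (all probe sets, 17.4% and 25.4%), with a median of 0.41 against −0.135 over all. At 14 h 8 were higher and 3 lower (13.5% and 15.2%), with a median of 0.48 against −0.06. Klf4, a factor of growth arrest, rose by 2.59 ± 0.371 by 3 h (adjusted p = 7.16e-04) and Btg1 by 2.09 ± 0.242 (adjusted p = 2.47e-04), with changes of 2.06 in EP2KO and 3.12 in WT for Klf4 and of 1.45 and 2.73 for Btg1. The departures at 3 h did not pass for either (adjusted p = 0.71 and 0.245). Another, dimmer Klf4 probe set gave −0.31 by 3 h (adjusted p = 0.0596). Ndrg1, a stress and differentiation gene, stood 3.06 ± 0.123 above 0 h at 14 h (adjusted p = 1.4e-07). Gadd45g, the third Gadd45 gene, rose by 1.22 ± 0.127 by 3 h (adjusted p = 1.4e-04) but stood at −1.09 ± 0.127 at 14 h (adjusted p = 1.16e-04), so the family ended in different places: Gadd45a up, Gadd45g down and Gadd45b, by its main probe set, not called. This last Gadd45g value was picked out after it was seen.

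Genes with the most similar course over the 8 arrays were sought for the 6 members that ranged over at least 1 unit, among 2350 other genes that did so too. The arrays share 4 times, so high correlations are common and are given as a description. Ccnd2 was most like Topbp1, a replication checkpoint gene (r = 0.994), Dnajc9, a histone chaperone (r = 0.994), and Mras, a small GTPase (r = 0.993). Gadd45a was most like Pon2 (r = 0.996), an antioxidant enzyme, Chmp5 (r = 0.992), of endosomal sorting, and Cpne3 (r = 0.99). Gas1 was most like Psap (r = 0.994), the precursor of lysosomal saposins, Cpne1 (r = 0.992) and Abcb1a (r = 0.992), an efflux transporter. Gadd45b was most like Ptger4 (r = 0.962), a further prostaglandin E2 receptor gene, at 8.82 in WT and 7.39 in EP2KO at 3 h, then Taf1d (r = 0.961) and Ube2z (r = 0.958). Cdkn1a was most like Lrrfip2 (r = 0.971), Dusp16 (r = 0.957) and Ppp1r15b (r = 0.955), and Cdkn2c like Cd200 (r = 0.979), Capn5 (r = 0.979) and Tdrp (r = 0.975).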

How the data were processed

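RNA of cumulus cells (100 ng, 2 amplification rounds) was hybridised to Affymetrix MG_U74Av2 arrays. The deposited log2 values were made with RMA by the authors, per the submitters' processing notes; its version and any detection calls are not given in the sources used here. RMA adjusts background, so low signals are compressed and their changes understated. The 12488 probe sets include 66 controls, and the other 12422 were tested with no filter. Symbols come from the platform annotation, and promoters from RefSeq. The probe set of a gene with the highest mean over the 8 arrays stands for it. Time and genotype contrasts came from limma 3.58.1 in R 4.3.3 with time and genotype as terms (3 residual degrees of freedom), and departures from a fit with 1 interaction (2 residual degrees of freedom). Genotype differences in the response enter the residual of the time contrasts. P values are two-sided and adjusted by Benjamini-Hochberg over all tested probe sets, with a threshold of 0.05. Replicates of a genotype and time do not exist, so p-values measure only the spread between single arrays, which may be technical in part. The code was tested on simulated data. Members, lists and tests were chosen with earlier results of these data known. The named genes are all 10 members with all their probe sets, up to 3 called genes per list and contrast, and the 3 most correlated genes of each member that ranged over at least 1 unit. The alternatives were median centring, quantile normalization, leaving out the dimmest 40% of probe sets, an intensity trend, averaged probe sets, each array left out, and, added after seeing the data, fits without the 14 h or the 3 h arrays.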

Additional observations from a re-analysis of the deposited data

Results flagged for a closer look

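In 2 cases the main probe set of a gene moved in opposite directions in the genotypes, by at least 0.1 in each, and in both the genotypes' changes from 0 h were not tested against each other. By 3 h Cdkn1c went up by 0.31 in WT and stood at −0.30 in EP2KO, so the EP2KO change minus the WT change was −0.61. By 9 h Cdkn1b went up by 0.37 in WT and stood at −0.10 in EP2KO, a difference of −0.47. The departures from the other 3 times, a related test, were −0.59 ± 0.194 for Cdkn1c at 3 h (limma, adjusted p = 0.583) and −0.47 ± 0.231 for Cdkn1b at 9 h (adjusted p = 0.999). The second Cdkn1b probe set rose in both genotypes by 9 h, by 0.61 and 0.82.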

How the results depend on the processing

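No called value of the 10 genes was reversed under any alternative that was run. Some values that did not pass changed sign with 1 array left out, among them Cdkn1a for 14 h against 9 h (0.34, lowest −0.09). With 1 array left out, 616 values of single genes stayed on the same side of the threshold, 29 lost a call and 15 gained one. Under the other settings the counts were 535, 6 and 11. An array left alone at its time is fitted exactly. So for the genotype contrast, and for time contrasts that do not use that time, leaving out either array of a time gives the same fit. That fit also equals the one without both arrays of the time. The counts therefore hold repeats and are not separate checks. Leaving out 1 array gave 1 to 6 called genes of the 10 for 3 h against 0 h, 2 to 7 for 9 h against 3 h, 3 to 6 for 9 h against 0 h and 5 to 7 for 14 h against 0 h. Over all probe sets it gave 1897 to 5471 calls for 3 h against 0 h, 489 to 2605 for 9 h against 3 h, 1286 to 2668 for 14 h against 9 h, 1225 to 3036 for 9 h against 0 h and 2289 to 3809 for 14 h against 0 h. For the genotype it gave 0 to 1, and for the departures 0 to 4 at 9 h and 0 at 14 h. The 10 probe sets called for the departure at 14 h became 0 with median centring, with the dimmest 40% left out, with probe sets averaged per gene and without the 3 h arrays, and the cause was not tested. For the departure at 9 h there was 1 call with the dimmest 40% left out and 4 without the 3 h arrays, at 3 h there were 4 with an intensity trend, and for the genotype there was 1 without the 14 h arrays. Leaving out the dimmest 40% gave 3482 calls at 3 h against 0 h among 7453 probe sets, where fewer were tested, and it left 8 of the 10 genes, without Cdkn1b and Cdkn1c. With probe sets averaged 5 of the 10 were called for 14 h against 9 h instead of 3. Each genotype and time had a single array, all with the same replicate number, so no replicates could be paired. With time and genotype as terms of the fit, the genotype contrast compares the WT and EP2KO arrays within each time. Signal over background is unknown here, so small changes of dim probe sets such as those of Cdkn1b and Cdkn1c may be understated.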
